A study of Drosophila melanogaster with 4 samples.

Results

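Narrow regions of H3K4me2, histone H3 dimethylated at lysine 4, numbered 537 on 3 autosomal arms in heads of adult Drosophila melanogaster. They were taken from the authors' list for both ChIP replicates together, called the combined list here, which holds 5559 regions. Members were selected on their width in that list, under 2000 bp, and on position, namely on 2L with a start below 21 Mb, on 3L with a start below 22 Mb or on 3R with an end above 1.5 Mb. These limits leave out the ends of the arms near the centromere. The members make up 9.66% of the combined list (exact 95% binomial interval 8.90 to 10.5%) and 17.3% (16.0 to 18.7%) of the 3098 combined regions on the same 3 stretches. The other 2561 regions there, of 2000 bp or more, are called wider regions. Because width chose the members, widths, scores and all that follows from them are given as a description, with no test.

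The flies were Oregon-R (Oregon-R-modENCODE) of wild type genotype, labelled as mixed adults, with no treatment named and no single age given. Heads were separated from whole flies reared in population cages, and ChIP-seq with an antibody to H3K4me2 was done on their fixed, sonicated chromatin. The series has 2 H3K4me2 ChIP libraries and 2 input DNA libraries, each input named in the labels as the one used for 1 replicate's list. Whether the replicates are separate collections of flies is not stated in the labels, and their spread may thus be technical. A head holds neurons, glia, fat body, muscle and cuticle cells, so a region may come from some of these cells or from all, and the lists do not tell these cases apart.

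Methylation of H3 at lysine 4 is laid down in flies by the Set1, Trithorax and Trithorax-related enzymes. The dimethylated form is found in general beside active promoters, where it flanks the trimethylated form, and at enhancers, where it occurs with the monomethylated form. Broad stretches of the mark often lie along the 5′ part of active genes.

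The narrow regions occurred at like densities on the 3 arms and covered little sequence. There were 165 on 2L, 161 on 3L and 211 on 3R, which is 7.86, 7.32 and 7.99 regions per Mb of stretch. They were 18.0% (exact 95% binomial interval 15.6 to 20.6%) of all regions on the 2L stretch, 16.5% (14.2 to 18.9%) on 3L and 17.5% (15.4 to 19.8%) on 3R. The intervals of the 3 arms overlapped. Elsewhere the same width limit was applied with no limit on position, so ends near the centromere were kept. There 15.9% of combined regions on 2R (13.8 to 18.2%), 21.6% on X (19.1 to 24.3%) and 17 of 84 on chromosome 4 (20.2%, 12.3 to 30.4%) were narrow. The 537 members together spanned 825 kb, against 14.3 Mb in wider regions, so that they held 5.44% of the covered sequence.

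Their median width was 1539 bp (quartiles 1293 and 1801 bp), against 4367 bp (2871 and 6851 bp) for the wider regions. All starts in the combined list were even and all widths odd, so no region is exactly 2000 bp wide. The widths run on without a step across the limit. All positions are on FlyBase release 5. The greatest width among members was 1999 bp and was shared by 4. The first 3 of them by arm and start were on 2L at 7700120 to 7702118, 8256006 to 8258004 and 12586128 to 12588126, with scores of 0.39, 0.38 and 0.40. The 3 narrowest regions outside the limit were 2001, 2003 and 2005 bp wide, on 2L at 11055986 to 11057986, on 3R at 6674938 to 6676940 and on 3L at 605224 to 607228, with scores of 0.37, 0.35 and 0.44. All 6 were present in both replicate lists.

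Most narrow regions were absent from at least 1 replicate's own list. A combined region counted as found where it shared 1 bp or more with a replicate region. Of the 537 members, 100 (18.6%, exact 95% binomial interval 15.4 to 22.2%) were found in both lists, against 2484 of the 2561 wider regions (97.0%, 96.3 to 97.6%). Over the whole combined list the share is 81.7%. A further 275 members (51.2%, 46.9 to 55.5%) were found in neither list, against 13 wider regions (0.508%, 0.271 to 0.866%) and 10.2% of the whole combined list. Found in replicate 1 alone were 71 members (13.2%, 10.5 to 16.4%) and in replicate 2 alone 91 (16.9%, 13.9 to 20.4%).

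Counted by replicate, 171 members (31.8%) overlapped the replicate 1 list and 191 (35.6%) the replicate 2 list, at 85.0% and 86.5% for the whole combined list. The mean over the replicates was 33.7% ± 2.63 for narrow regions and 98.2% ± 0.110 for wider regions (SD, n = 2). The combined list was made from the same libraries, so presence in a replicate list is not independent of the width that chose the members. Read depth behind the lists is unknown here, and the intervals cover counting error only.

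Presence in the replicate lists followed width closely. None of the 140 members under 1300 bp was found in both lists, and 136 of them (97.1%) were in neither. Among the 198 members of 1300 bp to under 1700 bp, 9 (4.55%) were in both and 102 (51.5%) in neither. Among the 199 members of 1700 bp or more, 91 (45.7%) were in both and 37 (18.6%) in neither. Beyond the limit the share in both lists was 86.2% of the 341 regions of 2000 bp to under 2500 bp and 96.6% of the 377 regions of 2500 bp to under 3000 bp.

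The narrowest region of the replicate 1 list was 1302 bp wide and that of the replicate 2 list 1301 bp, while the combined list went down to 1001 bp. Regions under about 1300 bp thus occur in the combined list only. Among the 396 members at least as wide as the narrowest replicate 1 region, a limit chosen after the data were seen, 25.3% were in both lists and 34.8% in neither, against 18.6% and 51.2% of all members.

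**Figure D1:**
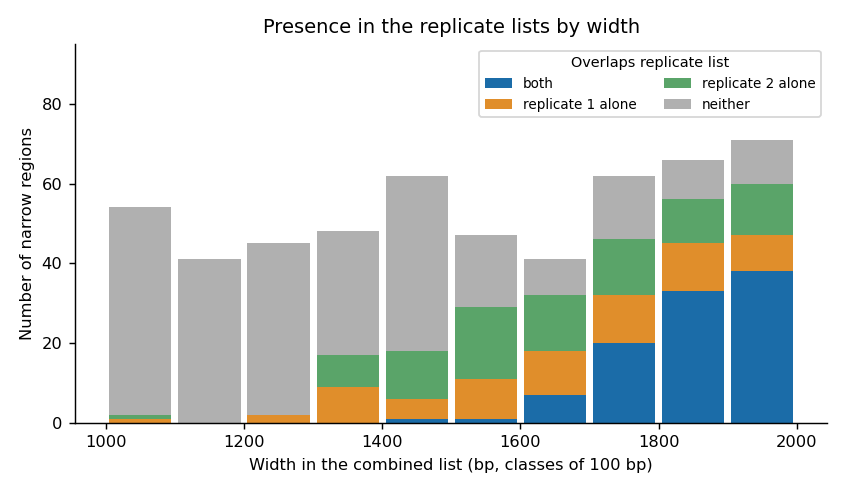
Narrow H3K4me2 regions counted in classes of 100 bp of their width in the combined list (x axis, bp), with the number of regions on the y axis and colours for the replicate lists they overlap. Regions under 1300 bp are almost all in neither list, and those in both lists are mostly 1700 bp or more wide.

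Where a member was found, the replicate region was usually shorter than the combined one. Replicate 1 regions that met a member had a median width of 1540 bp, and those of replicate 2 one of 1589 bp. The median difference from the member they overlapped was -162 bp in replicate 1 and -122 bp in replicate 2. The replicate region was wider than the member in 25 of 171 cases in replicate 1 and in 32 of 191 in replicate 2, and it reached 2000 bp in 4 and 2 of these cases. The greatest such width was 5745 bp, in replicate 1. Shorter replicate regions were not particular to members. For the 2232 wider regions that met exactly 1 region in each list, the median width was 4080 bp in the combined list. It was 3774.5 bp in replicate 1 and 3754 bp in replicate 2.

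Seen from the other side, each replicate list had its own narrow regions on these stretches, 367 of 2880 regions (12.7%) in replicate 1 and 381 of 2883 (13.2%) in replicate 2. Of those in replicate 1, 166 lay in a narrow combined region, 200 in a wider one and 1 across several. Of those in replicate 2, 185 lay in a narrow combined region, 191 in a wider one, 4 across several and 1 in none. The wider combined regions that took them in had a median width of 2464 bp for replicate 1 and 2515 bp for replicate 2, and 20 and 16 of these cases were regions of at least 10 kb. The width limit thus picked out partly different places in each list. Of the narrow replicate 1 regions 261 (71.1%) overlapped a region of replicate 2, and of the narrow replicate 2 regions 254 (66.7%) overlapped one of replicate 1. The same share over all regions of a replicate list was not computed, so whether these shares are low or high cannot be told here.

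Most of the 100 members found in both lists met regions with similar ends in each. The starts were a median of 91 bp apart between the replicates and the ends 86 bp, against 68.5 bp and 66 bp for the 2232 wider regions that met exactly 1 region in each list. Both ends were within 500 bp for 95 of the 100, but starts differed by up to 5067 bp and ends by up to 4282 bp. When an overlap of at least 50% of both regions was required, 97 members were found in both lists. The authors' score of these 100 members had a median of 0.41 in replicate 2 and 0.45 in replicate 1. The median difference, replicate 2 minus replicate 1, was -0.02 (quartiles -0.11 and 0.04), and 40 of 100 members scored higher in replicate 2. For the wider regions the median difference was -0.06 (quartiles -0.13 and 0.01), with 28.1% higher in replicate 2. The quartile ranges of the 2 groups overlapped for most of their length.

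Members found in 1 list alone were narrower in that list than the members found in both. Those in replicate 1 alone had a median width of 1456 bp in that list, against 1629 bp for the 100 found in both. In replicate 2 the medians were 1558 bp and 1660 bp. Their median scores were slightly higher. The median score of members in replicate 1 alone was 0.52, against 0.45 in the same list for members found in both, and in replicate 2 the medians were 0.45 and 0.41. Both lie far below the medians of the whole lists, 1.33 in replicate 1 and 1.27 in replicate 2.

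The highest-scoring members found in replicate 1 alone were on 2L at 2108648 to 2109968 (replicate 1 score 0.95), on 2L at 7737566 to 7739374 (0.83) and on 3R at 14791542 to 14793276 (0.65). Those found in replicate 2 alone were all on 3R, at 8967540 to 8969498 (replicate 2 score 0.64), 18741526 to 18742924 (0.61) and 7203806 to 7205692 (0.68). The regions were ranked by the combined score, which ran from 0.47 to 0.58 in replicate 1 alone and from 0.47 to 0.50 in replicate 2 alone.

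Narrow regions scored low, and nearly all within a small range. The score is a value per region that the authors deposited without a definition, so it is used here to describe and rank regions, and differences in score between lists are given as values with no meaning attached. The combined-list median was 0.34 (quartiles 0.28 and 0.39) for narrow regions and 1.31 (0.81 and 1.66) for wider regions. Of the members, 523 (97.4%) scored below 0.5, against 236 of the wider regions (9.22%). Among wider regions score and width were related (Spearman's rho 0.57 across 2561 regions), and among the narrow ones they were not related in this way (Spearman's rho -0.17 and Pearson's r -0.14 across 537 regions). These correlations are across regions of 1 list, which share their libraries.

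In classes of 100 bp of width, the median and the lowest score were both smaller in the classes between than in the narrowest and the widest class. Members under 1100 bp had a median score of 0.41 and none scored below 0.33. At 1500 bp to under 1600 bp the median was 0.30 and the lowest score 0.03. At 1900 bp or more the median was 0.37 and the lowest 0.27. Members found in neither list had a slightly higher median score (0.36, 275 regions) than those found in both (0.33, 100 regions), at median widths of 1305 bp and 1877 bp.

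**Figure D2:**
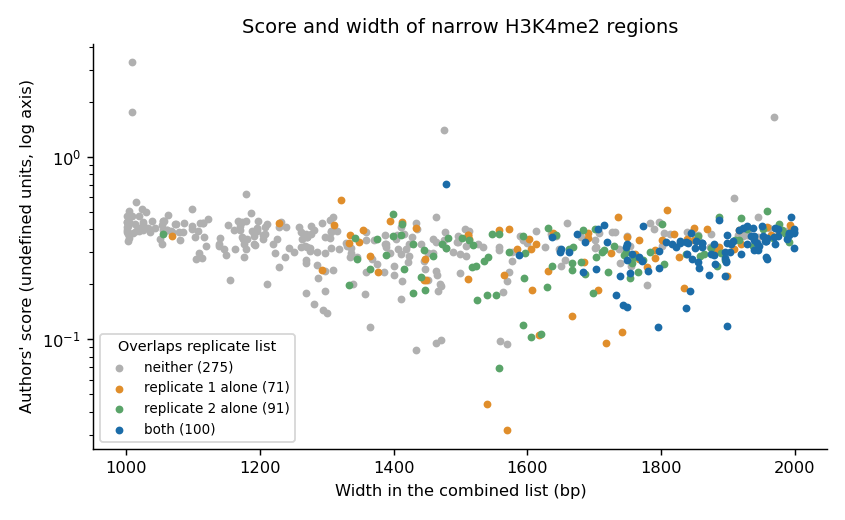
Each point is 1 narrow region, with its width in the combined list on the x axis (bp) and the authors' combined-list score on a log y axis, coloured by the replicate lists it overlaps. Nearly all points lie below 0.5, and the 4 above 1 are all found in neither replicate list.

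The 4 members that scored above 1 were all found in neither replicate list. The highest was on 3L at 8013932 to 8014940, 1009 bp wide with a score of 3.29. It stood 33.1 kb from the nearest region of any width, and neither replicate had a region within 25 kb of it. The next was on 3L at 19395774 to 19396782, also 1009 bp wide, with a score of 1.76. It lay 873 bp from a combined region of 8869 bp whose own score was 0.96.

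The other two were neighbours on 3R, at 17130168 to 17132136 (1969 bp, score 1.65) and 17127872 to 17129346 (1475 bp, score 1.40), 821 bp apart. The nearest wider region, at 17121656 to 17126140, had a score of 1.52 and was present in both replicates, with scores of 1.76 in replicate 1 and 1.52 in replicate 2. The replicate regions there ended at 17126140 and 17126051, short of both members. So the 2 members scored like the wider region beside them in the combined list and had no counterpart in either replicate. The fifth highest score, 0.71, belonged to a region close to the end of the 2L sequence, at 5034 to 6512 (1479 bp). This region was in both replicates, with scores of 0.68 in replicate 1 and 0.74 in replicate 2.

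Of the 14 members that scored above 0.5, 10 were in neither list, 1 in both, 2 in replicate 1 alone and 1 in replicate 2 alone. The highest combined scores among members found in both lists, after the 2L end region, fell off quickly. They were 0.47 on 3R at 14619050 to 14621044, 0.45 on 3R at 8334382 to 8336268, 0.42 on 2L at 3786928 to 3788642 and 0.42 on 3R at 18308302 to 18310074, the last tied with a later 3R region and taken as the first by position. In replicate 1 these 4 regions scored 0.57, 0.61, 0.60 and 0.53, and in replicate 2 they scored 0.62, 0.53, 0.46 and 0.55.

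Narrow regions had a larger median gap to a wider region than wider regions had to each other. The gap is the number of bases between the facing ends of a region and the nearest other region of at least 2000 bp on its arm. Its median was 4793 bp (quartiles 1273 and 11065 bp) for narrow regions and 2899 bp (959 and 8163 bp) for wider regions. For the 1170 regions of 2000 bp to under 4000 bp, the class next in width, it was 3726 bp (1136 and 10657 bp), and the quartile ranges of all 3 groups overlapped. The gap was at most 5 kb for 276 narrow regions (51.4%, exact 95% binomial interval 47.1 to 55.7%), 63.2% of wider regions (61.3 to 65.1%) and 56.8% of regions of 2000 bp to under 4000 bp (53.9 to 59.7%). It was under 1 kb for 116 narrow regions (21.6%, 18.2 to 25.3%), against 25.8% of wider regions (24.1 to 27.6%). To the nearest region of any width, the median gap was 2691 bp for narrow regions and 2319 bp for wider regions. For regions of 2000 bp to under 4000 bp it was 2985 bp, so by this measure narrow regions were not more isolated than the class next in width.

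The nearest wider region was itself usually modest, with a median width of 3907 bp (quartiles 2699 and 6883 bp). There was a wider region within 5 kb on both sides of 69 members, on 1 side of 207 and on neither side of 261. Some members stood next to another narrow region in order along the arm, where 17.3% of all regions were narrow. When regions were read along the arm, 222 of the 537 stood in runs of 2 or more narrow regions with no wider region between them. Such runs comprised 64 pairs and 29 longer runs, and the longest held 5 members. Runs were set by order alone, whatever the distance, and in 1 run of 3 on 3L neighbours lay 100 kb apart. The median gap to the nearest other narrow region was 34725 bp for members and 39001 bp for wider regions. How many members the order alone would place in runs was not computed.

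Satellites of broad domains were a minority. A member counted as a satellite where it lay at most 5 kb from a region of at least 10 kb. There were 52 (9.68%, exact 95% binomial interval 7.32 to 12.5%), against 277 of 2561 wider regions at this distance from another such domain (10.8%, 9.64 to 12.1%) and 9.49% (7.87 to 11.3%) of regions of 2000 bp to under 4000 bp. The intervals of the 3 groups overlapped. By arm, 11 satellites were on 2L, 20 on 3L and 21 on 3R, which is 6.67% (3.37 to 11.6%), 12.4% (7.76 to 18.5%) and 9.95% (6.27 to 14.8%) of the members of the arm.

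The 281 broad domains of these stretches rarely had a satellite. There were 47 with at least 1 (16.7%), of which 42 had 1 and 5 had 2, and, with each satellite given to its nearest domain, no domain had satellites on both sides. Median width was 12799 bp in domains with a satellite and 13235 bp in those without, and median scores were 1.60 and 1.66. The median gap between satellite and domain was 1528 bp, and 18 of the 52 lay under 1 kb away.

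The closest satellite was on 2L at 18843380 to 18844718, only 19 bp from a domain of 10213 bp, and was found in neither replicate list. The next 4 were found in replicate 2 alone. They were on 2L at 8551520 to 8552992 (45 bp from a domain of 10085 bp), on 3R at 4480880 to 4482562 (65 bp from a domain of 10639 bp), on 3R at 6701806 to 6703194 (201 bp from a domain of 14473 bp) and on 2L at 952232 to 954150 (267 bp from a domain of 29543 bp). The replicate 2 region at the first of these 4, 8550174 to 8551606, shared only 87 bp with the satellite and lay mostly in the domain, so its score is not that of the satellite. The other three had scores of 0.61, 0.41 and 0.67 in replicate 2. Over all 52 satellites, 9 were in replicate 2 alone and 7 in replicate 1 alone, and 33 were in neither list.

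Stand-alone regions, more than 20 kb from every wider region of the arm, numbered 75 (14.0%, exact 95% binomial interval 11.1 to 17.2%), against 11.8% of wider regions (10.6 to 13.1%) and 14.2% (12.2 to 16.3%) of regions of 2000 bp to under 4000 bp at this distance from another wider region. There were 24 on 2L, 20 on 3L and 31 on 3R. Their median gap to a wider region was 37.8 kb, and their nearest neighbour of any width was at a median of 28.6 kb. The remaining 410 members were neither satellites nor stand-alone.

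Few satellites were found in both replicate lists. The counts were 3 of 52 satellites (5.77%, exact 95% binomial interval 1.21 to 15.9%) and 25 of 75 stand-alone regions (33.3%, 22.9 to 45.2%), a difference of -27.6 percentage points. In neither list were 63.5% of the satellites and 42.7% of the stand-alone regions (32 of 75). The median width was 1418 bp in satellites and 1663 bp in stand-alone regions, and width is closely tied to presence in the lists. Among members of 1700 bp or more, a limit chosen after the data were seen, 3 of 16 satellites (18.8%, 4.05 to 45.6%) and 23 of 34 stand-alone regions (67.6%, 49.5 to 82.6%) were in both lists. The difference there was -48.9 percentage points, on few satellites, and the part of width in it was not tested. Median scores were 0.36 in satellites and 0.33 in stand-alone regions. Neighbouring regions share their libraries and are not independent, and no test was made.

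The share of members in both lists was higher in each class of larger gap to a wider region. It was 11.2% of 116 members under 1 kb away (exact 95% binomial interval 6.10 to 18.4%), 15.6% of 160 at 1 to 5 kb (10.4 to 22.2%), 19.9% of 186 at over 5 to 20 kb (14.4 to 26.4%) and 33.3% of the 75 beyond 20 kb. Among members of 1700 bp or more it was 29.7% of 37 (15.9 to 46.98%), 42.6% of 54 (29.2 to 56.8%), 45.9% of 74 (34.3 to 57.9%) and 67.6% of 34. Intervals of neighbouring steps overlapped in both series. Among regions of 2000 bp to under 2500 bp the share was 76.9% of 65 under 1 kb (64.8 to 86.5%) and 88.3, 87.6 and 90.4% at the other distances, with overlapping intervals. These gap classes were chosen after the data were seen.

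**Figure D3:**
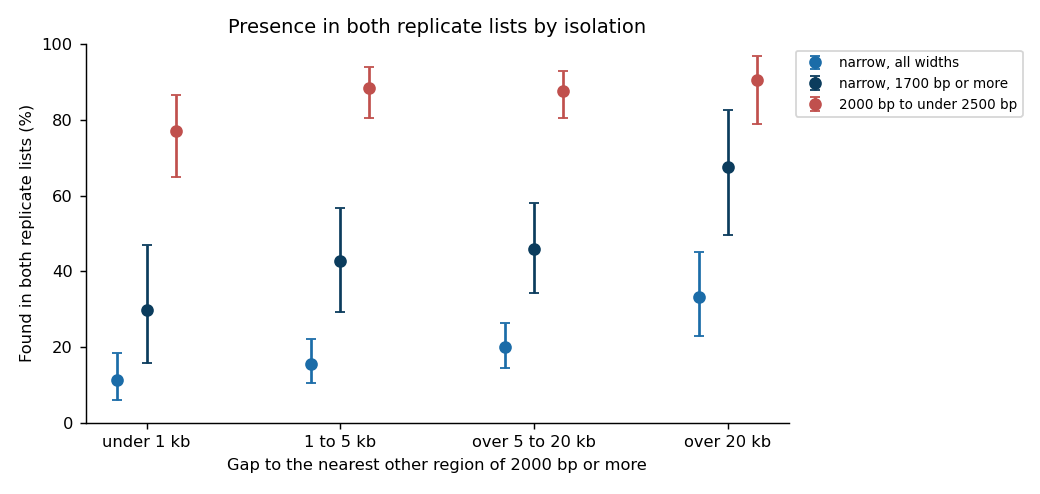
Share of regions found in both replicate lists (y axis, %) by the gap to the nearest other region of at least 2000 bp (x axis), for all narrow regions, narrow regions of 1700 bp or more and regions of 2000 bp to under 2500 bp, with exact 95% binomial intervals as bars. Both series of narrow regions are lowest under 1 kb and highest beyond 20 kb.

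The members found in neither list did not all border on replicate regions. The median distance from these 275 to the nearest region of either replicate was 3083 bp (quartiles 905 and 8063 bp). It was under 1 kb for 74 of them (26.9%) and over 20 kb for 26 (9.45%).

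The most isolated members formed a chain on 3L. A stretch of 434 kb, from 18179415 to 18613427, held no region of 2000 bp or more in the combined list, but held 5 narrow regions in a row, the longest run of narrow regions seen. The most isolated member of all, at 18390458 to 18392224, lay 211 kb from the nearest wider region, and the next, at 18431546 to 18433352, lay 180 kb away. Those at 18493900 to 18495866 and 18296034 to 18297872 were 118 and 117 kb from a wider region.

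These regions scored low, like most members, and each was present in at least 1 replicate list. The first of them scored 0.50 in replicate 1 and 0.53 in replicate 2, and the second 0.44 and 0.46. The region at 18296034 scored 0.49 in replicate 1 and 0.33 in replicate 2. The region at 18493900 and the fifth of the run, at 18553158 to 18554638, were present in replicate 2 alone, with scores of 0.48 and 0.42. So 3 of the 5 were found in both lists and 5 of 5 in replicate 2. Of all members 18.6% were in both lists and 35.6% in replicate 2, and of the whole combined list 81.7% and 86.5%. The 5 regions were 1481 to 1967 bp wide and all stood alone. Closer groups were members of 1700 bp or more, with 45.7% in both lists, and the 34 stand-alone members of that width, with 67.6%. Next to these, 3 of 5 was not an unusual share. The distances between neighbours in the run were 39.3 to 92.6 kb. The nearest wider region beyond the chain on the side of higher coordinates, 3063 bp wide at 18613428, scored 1.29 in the combined list.

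**Figure D4:**
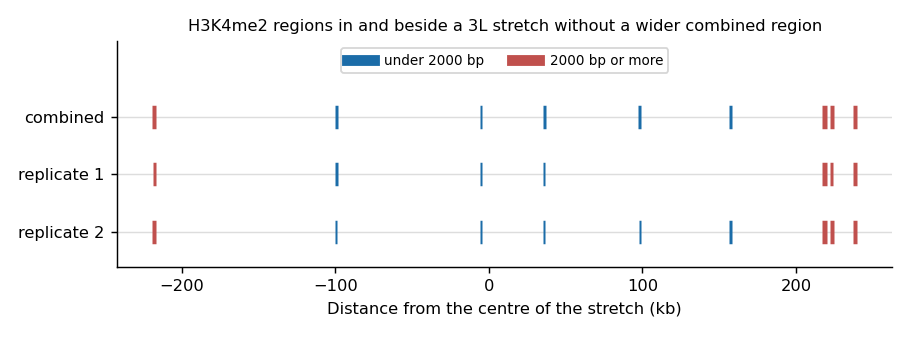
Regions in the combined list and in each replicate list across a 434 kb stretch of 3L and 40 kb on each side, by distance from the centre of the stretch (x axis, kb), with regions under 2000 bp in blue and wider ones in red. The 5 narrow regions overlap regions of replicate 2, and 3 of them overlap regions of replicate 1.

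The fifth most isolated member lay on 3R at 12588718 to 12589954, 107 kb from the nearest wider region. It was found in neither replicate list, as were 136 of the 140 members under 1300 bp. At 1237 bp it was narrower than every region of the replicate lists. Its score, 0.28, equalled that of the most isolated 3L member to 2 decimals.

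Along the arms the narrow regions kept no common gradient. Each stretch was divided into 5 equal parts counted from the centromere side. On 2L the density was 6.67, 5.95, 5.24, 11.4 and 10.0 narrow regions per Mb from the part next to the centromere outwards, so that the part next to the telomere and its neighbour were the richest. On 3L it was 9.09, 5.45, 8.18, 5.91 and 7.95 per Mb, and on 3R 7.76, 10.2, 7.20, 9.28 and 5.49 per Mb. The highest part was thus the fourth on 2L, the first on 3L and the second on 3R.

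As a share of all regions, narrow ones made up 17.4% (exact 95% binomial interval 14.5 to 20.6%) of the part next to the centromere and 17.3% (15.8 to 18.9%) of the rest, over the 3 arms together. The difference, centromere side minus rest, was -1.25 percentage points on 2L, 2.64 on 3L and -0.92 on 3R, so its sign was not the same on each arm. Stand-alone members were 19 of 109, 15 of 103, 18 of 96, 15 of 123 and 8 of 106 in the 5 parts from the centromere side outwards. Pooled over the arms, the third part thus had the highest share, 18.8%, and the part next to the telomere the lowest, 7.55%. The arms differed. The third part held 18.2% on 2L, 5.56% on 3L, where it was the lowest part, and 31.6% on 3R. The part next to the telomere held 9.52, 8.57 and 3.45%. The same share for wider regions was not computed by part. Over the 3 arms together, 20.2, 22.3, 16.7, 18.7 and 15.1% of members in the 5 parts from the centromere side outwards were in both replicate lists. In the end parts of each arm this share was 28.6% next to the centromere and 23.8% next to the telomere on 2L, and 17.5% and 14.3% on 3L. On 3R it was 17.1% and 3.45%, where the last value is 1 of 29 members, and highest in the second part (27.8%).

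**Figure D5:**
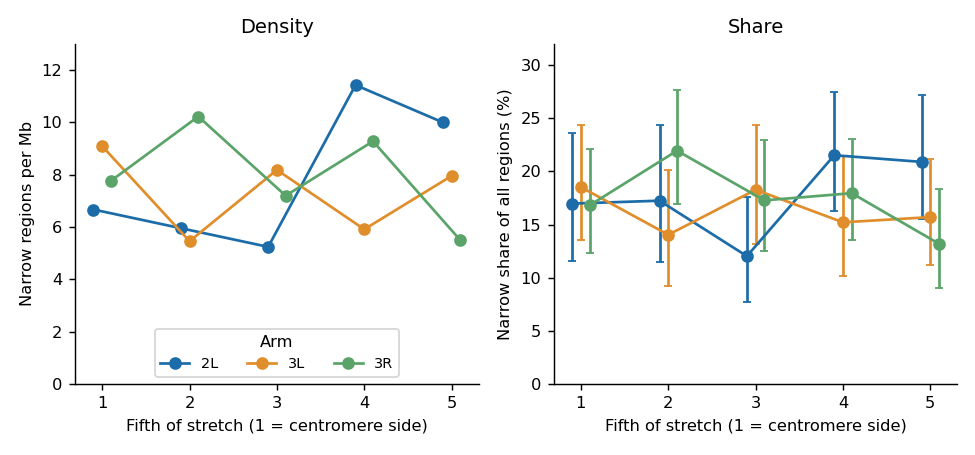
Narrow regions per Mb (left y axis) and their share of all combined regions with exact 95% binomial intervals (right, %), in 5 equal parts of each stretch counted from the centromere side (x axis), for 2L, 3L and 3R. The richest part is the fourth on 2L, the first on 3L and the second on 3R.

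No window of 1 Mb lacked a narrow region. Over 69 full windows the count ran from 1 to 16 with a median of 7, while wider regions ran from 15 to 67 with a median of 37. The fullest window was 2L from 7 to 8 Mb, with 16 narrow regions among 56 regions in all (28.6%). 2L from 3 to 4 Mb and from 8 to 9 Mb followed with 15 each. The emptiest was the first of 3R, from 1.5 to 2.5 Mb, with 1 narrow region among 29. Windows with more wider regions had somewhat more narrow ones (Spearman's rho 0.35 and Pearson's r 0.37 across 69 windows), and windows with a larger covered share had a slightly lower share of narrow regions (rho -0.22, r -0.26). These correlations describe windows of the same libraries, which share depth and neighbouring sequence. The covered share sums the widths of the same regions, so it is tied to the narrow share by construction, and no conclusion is drawn from that correlation.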

How the data were processed

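What was deposited by the authors are 3 region lists of significant H3K4me2 enrichment, 1 per ChIP replicate and 1 for the replicate set, with positions on FlyBase r5 (release 5) counted from 1, per the file headers. The submitters' processing notes name Bowtie 0.12.7. Neither the region caller and its threshold nor the way of combining replicates was given in the sources used here. The score of a region, as deposited by the authors, has no stated definition or scale. Read depth is unknown.

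Widths, gaps and overlaps (1 bp or more) were computed with scipy 1.17.1, pandas 2.3.3 and numpy 2.4.6 under Python 3.11.15, with code tested on simulated data, and plots with matplotlib 3.10.9. Shares carry exact Clopper-Pearson 95% intervals. Gaps were measured to any region of the same arm, also beyond the stretch limits. Named regions are the 5 highest-scoring members overall and among those in both lists, the 5 farthest from a wider region, the 5 closest satellites, the 3 highest-scoring in each replicate alone and the 3 on each side of the width limit, with ties broken by arm and start. The fifth region of the 3L run was named after its values were seen. The members and classes were chosen with earlier results of these data known. A release 5 genome or annotation was not used here, so no genes or sequences are named.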

Additional observations from a re-analysis of the deposited data

How the results depend on the processing

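Of 34 values recomputed under alternatives, 14 stayed within the 95% interval of the value as reported, 1 SD between replicates or 1.5 times a count, and 20 moved further. With a width limit of 1500 bp there were 250 narrow regions, of which 0.400% were in both replicate lists and 84.4% in neither. Their median gap to a region of at least 1500 bp was 2547 bp, 12.8% were satellites, 10.4% stood alone and the median score was 0.36 (0.356). With regions under 1000 bp apart merged in every list, the median gap was 6992 bp, 18.5% stood alone and the median score was 0.33 (0.331). Against the higher-scoring 50% of each replicate list, 0% of the narrow regions were in both and 100% in neither. That cut fell at scores of 1.33 in replicate 1 and 1.27 in replicate 2. The outcome restates the low scores of the replicate regions that met members. Satellites were 5.21% at a gap of at most 2000 bp, 14.5% at 10 kb and 21.8% with domains from 6 kb, and stand-alone regions were 27.2% at gaps over 10 kb and 5.96% at over 40 kb. In alternatives chosen after the data were seen, members at least as wide as the narrowest replicate 1 region were in both lists in 25.3% and in neither in 34.8% of cases. The difference between satellites and stand-alone regions was -38.7 percentage points among these and -48.9 among members of 1700 bp or more. That difference was negative in each of its alternatives. With either replicate left out, the share found per replicate list was that of the other, 31.8 or 35.6%. With 2 replicates each value always lies within 1 SD of their mean. These values are counted among the 14 that stayed but could not have moved. No paired analysis was possible because the lists hold no values of the input libraries. What read depth limits was not tested.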
